A study of Mus musculus with 11 samples.

Results

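The heat shock proteins described here are 10 molecular chaperones and partner proteins, taken as every probe set of the array whose platform gene symbol was Hspa1a, Hspa1b, Hspb1, Hsph1, Hsp90aa1, Hsp90ab1, Hspa8, Dnajb1, Hspe1 or Hspd1. A probe set is a group of short oligonucleotides on the array that together report one transcript. The rule found 20 of 22690 probe sets, for 9 of the 10 genes. Hsp90ab1 is not analysed here. Of the 20, 19 passed a filter that left out the dimmest 40% of probe sets, and the other, 1 of 4 for Hspa8, is given by its values alone.

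Liver RNA of 11 male mice was measured, each mouse on its own array, and the labels call the background mixed. Wild-type mice were fed either a normal diet (3 arrays) or a high-fat diet (4 arrays), and Akt1 double transgenic mice were fed the high-fat diet (4 arrays). All 3 groups, the wild-type controls included, received doxycycline for 3 weeks, an antibiotic that controls transgenes built to respond to it. Muscle hypertrophy is noted for the transgenic mice and for no others, and the labels name neither the promoter of the transgene nor the length of the diet. No transgenic mice on the normal diet were analysed here, so the transgene is compared on the high-fat diet only. Transgenic against normal-diet mice differ in both genotype and diet, and the 3 comparisons share their groups. The labels give one number per mouse and do not say whether mice shared a litter or a day. The p-values therefore rest on the spread between these mice, taken as common to the 3 groups.

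Heat shock proteins are chaperones that bind unfolded or newly made proteins, keep them from clumping and help them fold. Under heat or other protein damage the transcription factor HSF1 binds repeats of the letters GAA and TTC in the promoters of these genes and raises their transcription. Hspa1a and Hspa1b are known for almost no transcription at rest and a steep rise under stress. Hspa8, Hsp90ab1, Hspd1 and Hspe1 are made at all times, and in liver much of the Hspd1 and Hspe1 protein folds enzymes of the mitochondrial matrix.

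Signals are MAS5 intensities, a linear scale on which each array had a 2% trimmed mean of 500 (499.9 on each array before rounding). Median signals lay between 97.2 and 118 and top signals between 27780 and 35450, apart from transgenic arrays 3 and 4, whose top signals were 42426 or more. Transgenic array 3 also had the lowest mean signal over 24 bacterial poly-A control probe sets, 126 against 310.1 to 525. Its Gapdh 3'/5' ratio was the highest, 0.823 against 0.669 to 0.768. Its Actb 3'/5' ratio was near the low end, 1.502 against 1.481 to 1.720 in the other arrays, so these ratios did not point the same way. Of 12 hepatocyte markers 9 were on the array, all above the limit of the dim probe sets, a signal of about 58.2. Bulk liver RNA was measured, so fewer cells of a type and less RNA per cell cannot be told apart. The 13 of 14 Kupffer cell and macrophage markers measured had summed signals of 3529 to 6554 on the normal diet, 4845 to 12176 in wild-type high-fat mice and 6124 to 16579 in transgenic mice. Neutrophil markers (9 of 10 measured, only 1 above the dim limit) had 259 to 260 (normal diet), 267 to 376 and 532 to 1983. Prtn3 was the largest of them in each transgenic array, with 203 to 1418 there and 6.1 to 43.9 elsewhere. Csf3r, the marker above the dim limit, overlapped between groups (21.1 to 106, 42.6 to 115 and 70.4 to 132), and the dim S100a8 and S100a9 were higher in transgenic mice. The dim Elane, Mpo, Camp, Ltf and Ngp overlapped between groups, as with Mpo at 5.9 to 38.6 in transgenic mice and 6.5 to 51.8 elsewhere. Most markers in the neutrophil list therefore did not separate the transgenic mice. All 14 skeletal muscle markers were below the dim limit. Precision is limited by how few arrays there were.

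Hspa1b and Hspa1a, the 2 stress-inducible HSP70 genes, had the widest gaps between groups of the 9 genes. Hspa1b fell in transgenic mice against wild-type mice on the normal diet, at 2 of its 3 probe sets. Its level was highest on the normal diet, lower in wild-type high-fat mice and lowest in transgenic high-fat mice at all 3 probe sets. Neither neighbouring pair in that order differed past the threshold of a Benjamini-Hochberg adjusted p under 0.05 in limma.

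The brightest probe set of Hspa1b (1452318_a_at) had signals of 3143, 2204 and 6844 in normal-diet arrays 1 to 3. It had 2975, 3420, 1318.5 and 1026 in wild-type high-fat arrays 1 to 4, and 1008, 968, 644 and 888 in transgenic arrays 1 to 4. Group means were 4064 ± 2453 (SD, n = 3), 2185 ± 1189 (SD, n = 4) and 877 ± 163 (SD, n = 4). Every transgenic array lay below every array of the other groups, and wild-type high-fat mice were split, with arrays 1 and 2 inside the normal-diet range and arrays 3 and 4 near the transgenic mice. Transgenic minus normal diet was -2.07 ± 0.44 (log2, SE), a 4.19-fold lower level (limma adjusted p = 0.0357).

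A second Hspa1b probe set (1427126_at) had signals of 1511, 841 and 2880 on the normal diet. In wild-type high-fat mice it had 1207, 1458, 654 and 504, and in transgenic mice 405, 402, 375 and 388.5. The 4 transgenic arrays differed by no more than 1.08-fold, against 3.42-fold within the normal diet and 2.90-fold within wild-type high-fat mice. Transgenic minus normal diet was -1.97 ± 0.40 (log2, SE; limma adjusted p = 0.0289), 3.93-fold lower.

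The third Hspa1b probe set (1427127_x_at) had 1793, 1043 and 3451, then 1544, 1643, 865 and 608, then 474, 662, 369.8 and 906 in the same order of groups. Transgenic arrays again lay below the normal diet, here overlapping wild-type high-fat arrays. The log2 difference from the normal diet was -1.71 ± 0.44 (SE; limma adjusted p = 0.0679), which did not pass.

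Hspa1a was measured by 1 probe set (1452388_at), with 339, 136 and 595 on the normal diet. It had 306, 287, 35.4 and 56.3 in wild-type high-fat mice and 70.2, 71.5, 36.9 and 60.6 in transgenic mice. The split of the wild-type high-fat arrays was the same as for Hspa1b, and signals of 35.4, 56.3 and 36.9 were below the dim limit of about 58.2. The log2 difference of transgenic from normal-diet mice was -2.38 ± 0.73 (SE; limma adjusted p = 0.116), with no overlap of the arrays.

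**Figure D1:**
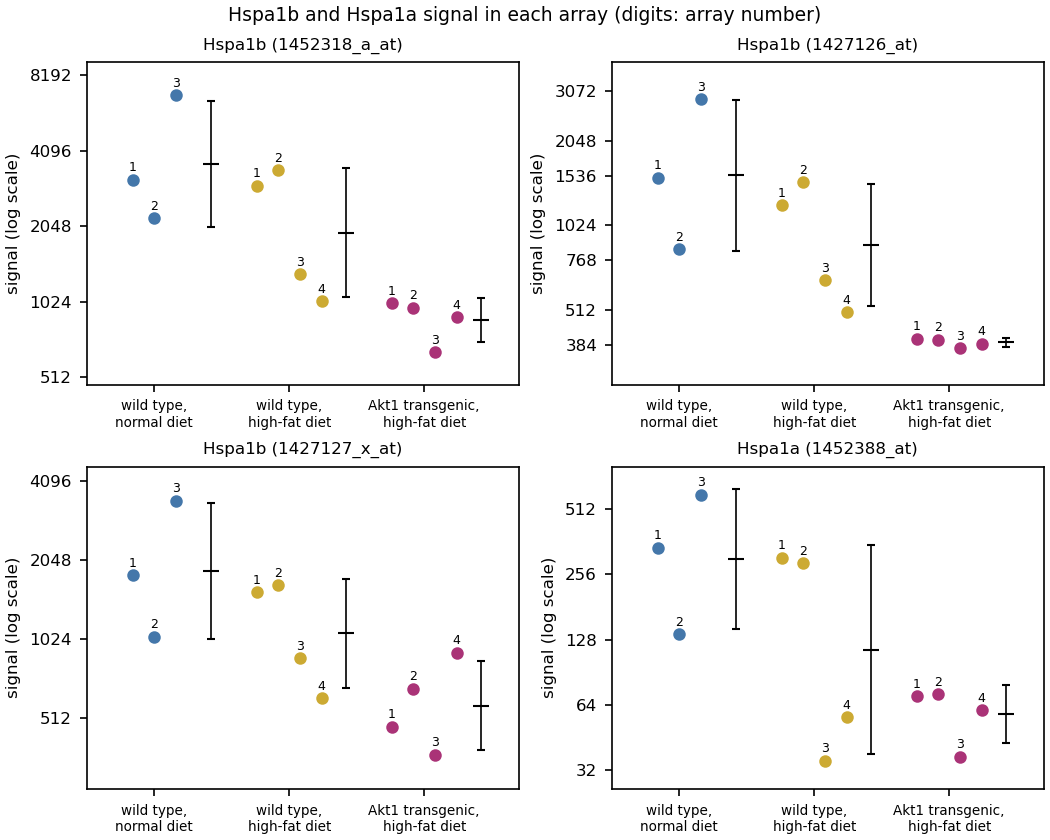
Signal (log axis) of the 3 Hspa1b probe sets and the Hspa1a probe set, one point per array with its number, and beside each group the mean and 1 SD of log2 signal. At 1427126_at the transgenic arrays sit between 375 and 405, below all others, and wild-type high-fat arrays 1 and 2 lie above arrays 3 and 4 in all 4 panels.

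The call for Hspa1b rested on few arrays. Without normal-diet array 3, the highest, the log2 difference was -1.61 (limma adjusted p = 0.119) at 1452318_a_at and -1.52 (0.0952) at 1427126_at. Both probe sets also missed the threshold without normal-diet array 1 (log2 -2.17 and -1.99, adjusted p = 0.0724 each), and without transgenic array 2 (-2.12 and -1.99, with 0.0574 and 0.0525), array 3 (-1.92 and -1.95, with 0.0769 and 0.0569) or array 4 (-2.08 and -1.97, with 0.0927 and 0.0811). When replicate number entered the fit as a block they had -1.92 and -1.84, with limma adjusted p of 0.0781 and 0.0692. In eBayes without trend the adjusted p was 0.0649 and 0.0569, with robust eBayes 0.0643 and 0.05002, and with array weights 0.0547 at 1452318_a_at, and without both transgenic arrays 3 and 4 it was 0.185 and 0.156. Of 4 red cell precursor markers measured (7 in the list), only the erythroid heme enzyme Alas2 was above the dim limit. Alas2 had its highest signal, 1517, in that same normal-diet array 3, against 162 to 468 elsewhere. The dim Hba-a1, Slc4a1 and Epb42 were not raised there, with 4.5, 50.1 and 13.6, against 7.3, 69.2 and 19.2 in normal-diet array 1. Nearly all of the list's sum in array 3 was therefore Alas2. The summed list had 264 to 1585 on the normal diet, 391 to 512 in wild-type high-fat mice and 292 to 469 in transgenic mice, and its part in the result was not tested.

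The single effects of diet and transgene on these genes did not pass. For diet in wild-type mice the log2 differences were -0.91 ± 0.44, -0.82 ± 0.40 and -0.79 ± 0.44 for the Hspa1b probe sets and -1.39 ± 0.73 for Hspa1a (SE; limma adjusted p from 0.726 to 0.788). For the transgene on the high-fat diet they were -1.16 ± 0.40 (1452318_a_at), -1.15 ± 0.37 (1427126_at) and -0.92 ± 0.40 (1427127_x_at) for Hspa1b and -0.99 ± 0.67 for Hspa1a, with limma adjusted p of 0.229, 0.195, 0.343 and 0.558. In the latter comparison the arrays of the groups did not overlap at 1452318_a_at and 1427126_at, the gap at the former being from 1008 to 1026.

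Hspa1a and Hspa1b are neighbouring genes whose products are nearly the same, so oligonucleotides for one can bind RNA of the other and their signals are not independent. Their promoters are shown because both genes split the wild-type high-fat arrays in the same way. In RefSeq's GRCm38.p6 the 250 bases before the start of each gene, on the minus strand, are chr17:34972157-34972406 for Hspa1a and chr17:34959239-34959488 for Hspa1b. Capitals mark GAANNTTC or TTCNNGAA, the head-to-head and tail-to-tail pairs of the HSF1 repeat, each of which reads the same on both strands.
Hspa1a: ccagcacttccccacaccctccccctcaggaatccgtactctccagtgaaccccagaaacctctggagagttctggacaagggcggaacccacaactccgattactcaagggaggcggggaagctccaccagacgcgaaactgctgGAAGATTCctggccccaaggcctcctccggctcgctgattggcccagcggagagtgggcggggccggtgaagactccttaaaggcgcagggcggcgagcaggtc
Hspa1b: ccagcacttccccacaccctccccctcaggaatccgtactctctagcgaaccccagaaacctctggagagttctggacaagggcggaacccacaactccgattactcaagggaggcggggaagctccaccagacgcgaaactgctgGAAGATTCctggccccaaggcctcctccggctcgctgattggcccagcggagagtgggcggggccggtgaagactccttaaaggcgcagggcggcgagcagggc
The windows were 98.8% identical, with 247 of 250 positions shared. The 3 differences were C44T, T47C and T249G (Hspa1a base, position from the 5' end of the window, Hspa1b base), none of them in the capitals. Each window held 1 match, which began 104 bases before the start.

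Promoter windows of the same length were found for 7 of the 10 genes, with 10 windows in all, and 7 of the 10 windows, from 6 genes, held a match. Over all 32851 windows in the RefSeq table, 12.8% held one of these pairs. Dnajb1 had no match in its 2 windows, and Hspd1 had none in 1 of its 2. The 2 Hsph1 windows overlap and held the same match, and Hspd1 and Hspe1 share theirs, so the windows with a match are not separate sites. Hspd1 and Hspe1 lie side by side on chromosome 1 and are read in opposite directions from one shared promoter, which held 3 overlapping matches. These form 3-unit repeats, a GAANNTTC followed by NN and a further GAA, and the reverse complement of that. Such a 3-unit repeat was in 0.466% of all windows. The stretches below are shown to set the matches beside each other, from chr5:135887796-135887835 (plus strand), chr5:149636346-149636385 (minus strand) and chr1:55088048-55088087 (plus strand for Hspe1).
Hspb1: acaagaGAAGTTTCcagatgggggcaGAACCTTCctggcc
Hsph1: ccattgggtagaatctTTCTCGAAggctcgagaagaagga
Hspe1: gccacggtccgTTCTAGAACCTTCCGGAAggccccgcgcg
A match is a run of letters and no evidence of binding in these livers.

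Across the family, 2 of the 19 tested probe sets were called in transgenic mice against the normal diet, both Hspa1b and both lower, where 1.95% of the 12228 probe sets tested were called (0.679% lower). At an unadjusted limma p under 0.05 there were 6 lower and 2 higher, against 8.04% and 9.83% of all. Arrays of the groups did not overlap for 4 that were lower, all 4 of Hspa1a and Hspa1b, against 7.03% of all. The same held for 2 that were higher, 1450668_s_at of Hspe1 and the Hspd1 probe set, against 8.29%. Of the 19, 13 were below 0 (49.2% of all). The median log2 difference over the 9 genes at their brightest probe set was -0.41, against 0.0031 over all 7771 genes. Probe sets of one gene share their transcript, so these counts are not of independent measurements.

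For diet in wild-type mice limma called 0 of the 19, as it called 0% of all probe sets. At an unadjusted limma p under 0.05 there was 1, Hspd1, which was higher, against 3.75% of all, and it was also the 1 whose arrays did not overlap, against 4.38% higher without overlap. Of the 19, 16 had a log2 difference below 0 (50.1% of all), and the median over the 9 genes was -0.29, against 0.01 over all genes. For the transgene on the high-fat diet limma called 0 of the 19 (0.409% of all), and the 3 with an unadjusted p under 0.05 were the Hspa1b probe sets, all lower (6.40% of all). Of the 19, 2 were lower without overlap, against 3.88% of all, and 10 were below 0 (48.7% of all). The median over the 9 genes was -0.17, against -0.00064 over all genes.

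**Figure D2:**
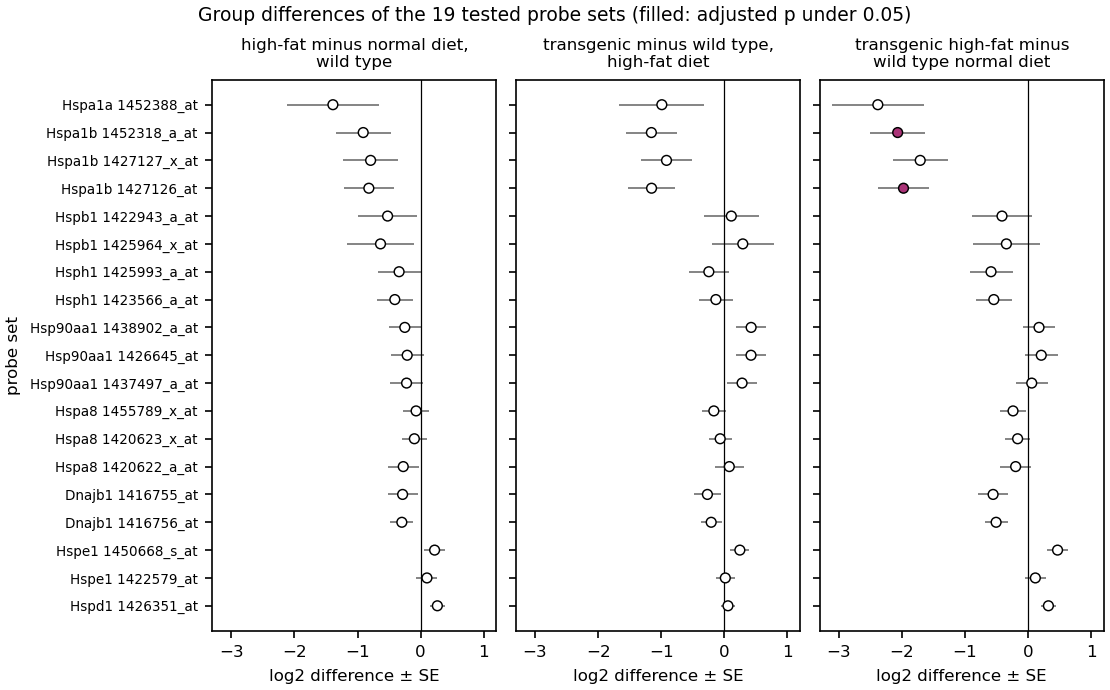
Log2 difference (points) with limma's standard error (lines) for the 19 tested probe sets in the 3 comparisons, filled where the adjusted p was under 0.05. The 2 filled points are Hspa1b probe sets in the right panel, at -2.07 and -1.97, and Hspd1 and Hspe1 lie above 0 in each panel (Hspd1 in the middle panel at 0.06, but at -0.03 under quantile normalization).

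Hsph1 and Dnajb1, partners of HSP70, had lower means in transgenic than in normal-diet mice without passing. Hsph1 is an HSP110 protein that exchanges nucleotide on HSP70, and its brighter probe set (1425993_a_at) had 740, 429 and 1091 on the normal diet. It had 724.5, 701, 584 and 318 in wild-type high-fat mice and 372, 487, 669 and 394 in transgenic mice. The groups overlapped, and transgenic minus normal diet was -0.59 ± 0.34 (log2, SE; limma adjusted p = 0.397), with -0.54 ± 0.28 at the other probe set (0.341).

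Dnajb1 is a J-domain protein that delivers clients to HSP70 and starts its ATP cycle. Its brighter probe set (1416755_at) had 529, 549.9 and 942 on the normal diet, 573, 653, 504 and 428 in wild-type high-fat mice and 429, 378, 628 and 377 in transgenic mice. Normal-diet array 3 was the highest of all, as for Hspa1a, Hspa1b and Hsph1. Transgenic minus normal diet was -0.55 ± 0.24 (limma adjusted p = 0.245), and -0.51 ± 0.18 (0.169) at 1416756_at.

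Without normal-diet array 3 the diet difference was -0.02 for Hsph1 and -0.02 for Dnajb1, against -0.34 ± 0.34 and -0.29 ± 0.24 with it (log2, SE, brightest probe sets). For Hspa1a and Hspa1b it was -0.90 and -0.45 without that array. Transgenic minus normal diet was -0.27 for Hsph1 and -0.29 for Dnajb1 without it, against -0.59 and -0.55 with it.

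Hspb1, the small heat shock protein HSP27 that holds unfolded proteins, varied within groups more than between them. Its brighter probe set (1422943_a_at) had 809.5, 267.5 and 612 on the normal diet, 421, 513.5, 319.7 and 229 in wild-type high-fat mice and 346, 263, 932 and 253 in transgenic mice. Transgenic array 3 was the highest of all 11, and the other transgenic arrays lay within the wild-type high-fat range. Both probe sets put the transgenic arrays in the same order, and the second (1425964_x_at) had 280, 187, 602 and 157 in transgenic mice. Transgenic minus wild type on the high-fat diet was 0.11 ± 0.44 (log2, SE; limma adjusted p = 0.940), and -0.32 without transgenic array 3.

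Hsp90aa1 encodes the stress-inducible cytosolic HSP90, which matures kinases and steroid receptors. Its brightest probe set (1438902_a_at) had 3986, 2674 and 4607 on the normal diet, 3477, 3195, 3244.5 and 2491 in wild-type high-fat mice and 2816, 4519, 6417 and 3568 in transgenic mice. The highest signal was again in transgenic array 3, and transgenic array 1 lay inside the wild-type high-fat range. The transgene difference was 0.42 ± 0.23 (log2, SE; limma adjusted p = 0.455), or 0.21 without transgenic array 3, and the other 2 probe sets had 0.42 ± 0.24 and 0.28 ± 0.24. Transgenic minus normal diet was 0.17 ± 0.25 (log2, SE; limma adjusted p = 0.771), and its sign turned without transgenic array 3 (-0.04) or normal-diet array 2 (-0.05).

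Hspa8, the constitutive HSP70 of the cytosol, had signals of 11068, 8595 and 13693 on the normal diet at its brightest probe set (1455789_x_at). Wild-type high-fat mice had 11232, 11497, 10173 and 8875, and transgenic mice 7539, 7285, 12251 and 10934. All 3 groups overlapped, and at the 3 tested probe sets the differences of the 3 comparisons lay between -0.28 and 0.08 (log2; limma adjusted p from 0.572 to 0.972). The remaining probe set (1431182_at) was dim, with 24.6 to 117 over the 11 arrays.

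Hspd1 (HSP60) forms the folding barrel of the mitochondrial matrix and Hspe1 (HSP10) is its lid. Hspd1 (1426351_at) had 7768, 8329 and 8861 on the normal diet, 9747, 10985, 10202 and 9096 in wild-type high-fat mice and 10588, 8924, 12420 and 9933 in transgenic mice. Every high-fat array of either genotype lay above every normal-diet array. The difference from the normal diet was 0.27 ± 0.12 in wild-type and 0.32 ± 0.12 in transgenic mice (log2, SE), and neither passed (limma adjusted p = 0.688 and 0.168).

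Hspe1 at its brighter probe set (1450668_s_at) had 5423, 5421 and 4743 on the normal diet, 6317, 7022, 6090 and 4950 in wild-type high-fat mice and 6430, 5994, 9810 and 6997 in transgenic mice. Transgenic arrays lay above the normal diet, with array 3 the highest (0.47 ± 0.16, log2, SE; limma adjusted p = 0.162). The dimmer probe set (1422579_at) had 906 to 1208 on the normal diet and 831 to 1388 in transgenic mice, a difference of 0.12 ± 0.17. The s_at ending marks a probe set that may also bind other transcripts.

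**Figure D3:**
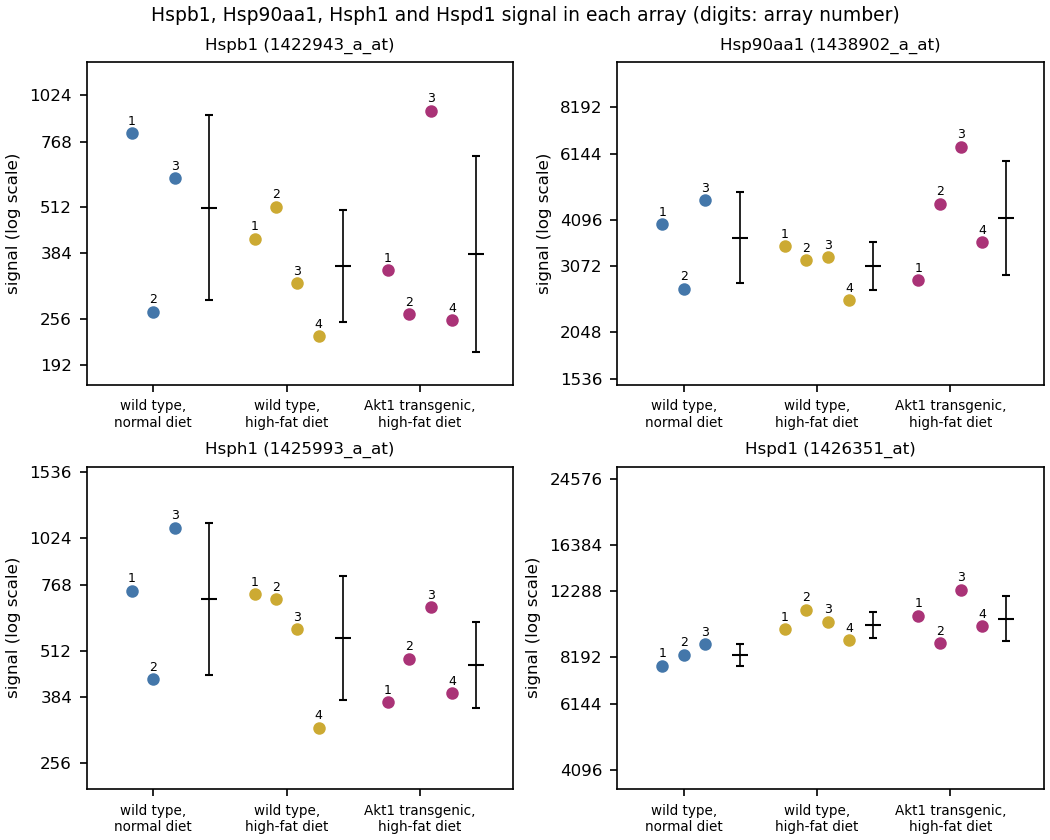
Signal (log axis) of Hspb1, Hsp90aa1, Hsph1 and Hspd1 at the brightest probe set of each, one point per array with its number, with the mean and 1 SD of log2 signal per group. Transgenic array 3 is the top point for Hspb1 (932), Hsp90aa1 (6417) and Hspd1 (12420), and normal-diet array 3 for Hsph1 (1091).

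Arrays of one group differed for most of the family at once. Among the 9 genes at their brightest probe set, normal-diet array 3 was the highest of its group for 7, and array 2 the lowest for 6. In wild-type high-fat mice array 4 was the lowest for 8, and array 2 was above its group mean for all 9. In transgenic mice array 3 was the highest for 7 and the lowest for the other 2, Hspa1a and Hspa1b. Averaged over the 9 genes, log2 signal relative to the mean of all arrays ran from -0.54 in wild-type high-fat array 4 to 0.79 in normal-diet array 3. The same counts were not made over all genes, so they are not shown to be particular to this family. Transgenic array 3 also had the lowest mean Spearman correlation with the other arrays, 0.940, and the part of array quality was not tested.

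**Figure D4:**
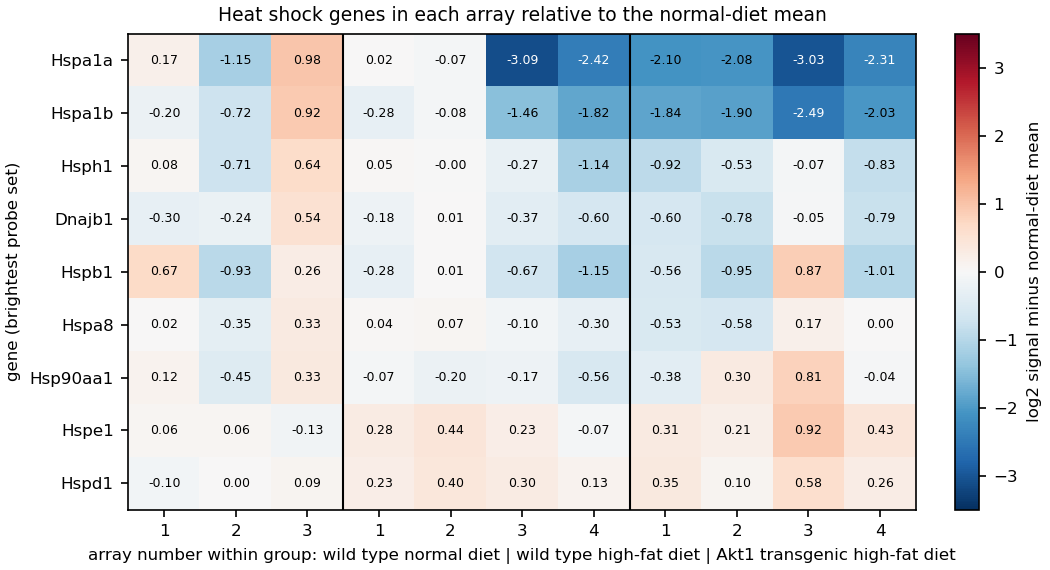
Log2 signal minus the normal-diet mean for 9 genes (rows, brightest probe set) in 11 arrays (columns, by group), with the value in each cell. Hspa1a and Hspa1b are low in wild-type high-fat arrays 3 and 4 and in the 4 transgenic arrays, while transgenic array 3 is high for Hspb1 (0.87), Hsp90aa1 (0.81) and Hspe1 (0.92).

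The spread between arrays of a group was widest for Hspa1a, Hspb1, Hspa1b and Hsph1 and narrowest for Hspd1. The pooled within-group SD of log2 signal was 1.15 for Hspa1a, 0.75 for Hspb1, 0.69 for Hspa1b and 0.53 for Hsph1, which is wider than in 99.2%, 96.2%, 95.4% and 90.3% of tested probe sets. It was 0.39 for Hsp90aa1, 0.35 for Dnajb1, 0.30 for Hspa8, 0.24 for Hspe1 (wider than in 46.5% of tested probe sets) and 0.15 for Hspd1 (16.3%). The median was 0.39 over the 9 genes and 0.24 over all 7771 genes tested, and 7 of the 9 lay above the latter. By group, the median over the 9 genes was 0.47 on the normal diet, 0.26 in wild-type high-fat mice and 0.38 in transgenic mice, against 0.21, 0.20 and 0.23 over all genes. Hspa1b at 1427126_at had an SD of 0.89 and 0.72 in the wild-type groups and 0.051 in transgenic mice, the latter wider than only 1.65% of probe sets. Its other probe sets had 0.29 and 0.56 in transgenic mice. The percentages above were not matched for signal level. Hspa1a, the widest, had signals of 35.4, 56.3 and 36.9 below the dim limit, and the part of low signal in its spread was not tested.

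**Figure D5:**
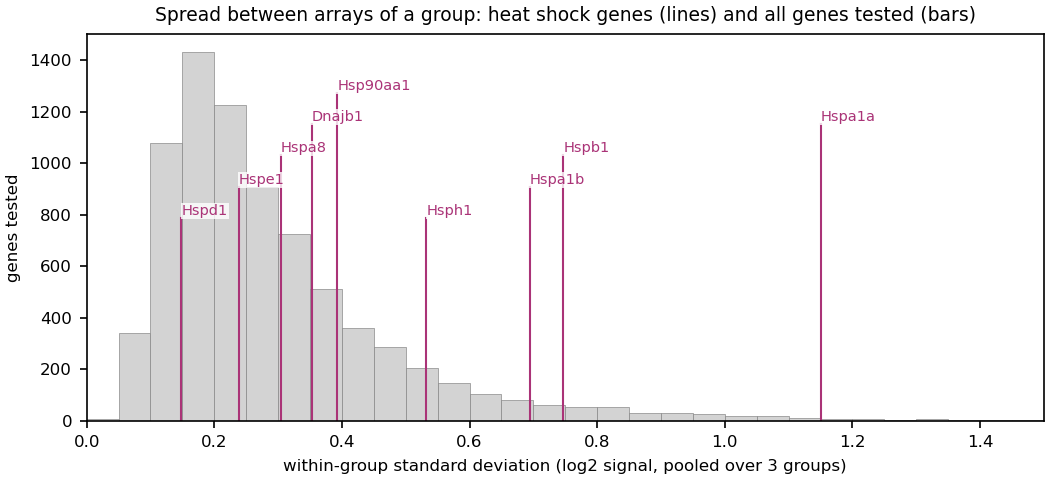
Number of genes (bars) by pooled within-group SD of log2 signal, with lines for the 9 heat shock genes at their brightest probe set. Hspd1 (0.15) lies left of the median of all genes (0.24), and Hspa1a (1.15) in the far right tail. The axis ends at 1.5, and a few genes lie beyond it.

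The wider chaperone network was followed in lists of 9 further functions and of immediate early genes, 102 genes tested at their brightest probe set. Of these, 0 passed for diet, 1 for the transgene and 4 for transgenic against normal-diet mice, all higher, where 0%, 0.412% and 2.06% of genes were called. Over all genes tested, 48.9% were below 0 for diet and 50.1% for the transgene.

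Of 20 J-domain co-chaperones tested, Dnajc12, a co-chaperone of aromatic amino acid hydroxylases, rose with the transgene by 1.64 ± 0.29 (log2, SE; limma adjusted p = 0.0435), from 671 to 2274. No probe set was called for the transgene in eBayes without trend, nor in the fit with the fewest calls when single arrays were left out. The Dnajc12 call was therefore lost in these fits and depended on the arrays used. The other 19 did not pass, and 14 of the 20 were below 0 (median -0.13, against -0.00064 over all genes). Dnaja1, a partner of HSP70, had -0.35 ± 0.13 with the transgene (limma adjusted p = 0.245). For diet Dnajc4 had 0.58 ± 0.16 and Dnajc7 had -0.29 ± 0.11, and neither passed.

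In the lists of HSF factors, HSP70 exchange and degradation co-chaperones and HSP90 co-chaperones none passed in any of the 3 comparisons (limma). Hsbp1, which binds HSF1 trimers, had -0.06 ± 0.09 with the transgene, and Hsf4 had -0.41 ± 0.26 near the dim limit. Bag3, which links HSP70 to autophagy, had -0.56 ± 0.24, and Bag1, a nucleotide exchange factor, -0.24 ± 0.10. Of 9 genes in that list 5 were below 0 (median -0.04). Stub1, the ubiquitin ligase CHIP, had -0.18 ± 0.11 for diet, and Bag1 -0.17 ± 0.11.

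Of 14 HSP90 co-chaperones, 11 were above 0 with the transgene (median 0.07) and 11 below 0 for diet (median -0.09). Fkbp4 had -0.35 ± 0.11 with the transgene without overlap, and Unc45a had 0.55 ± 0.24. For diet Fkbp5, a glucocorticoid-induced immunophilin, had -0.87 ± 0.37, and Chordc1 had -0.48 ± 0.23.

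Other HSP70 and HSP110 proteins (5 tested) included Hspa4l, with 0.90 ± 0.30 with the transgene, and Hspa2, with 0.31 ± 0.26. For diet Hspa14 had 0.43 ± 0.16 and Hspa2 -0.43 ± 0.28. From the list named small heat shock proteins 2 of 6 genes on the array were tested. Of these Hspb8 had 0.27 ± 0.18 for diet and 0.28 ± 0.17 with the transgene. Hspb11, which was listed by its name and not by a known chaperone role, had -0.31 ± 0.27 and 0.07 ± 0.25.

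Among 9 mitochondrial chaperones and proteases, Grpel2, an exchange factor of mitochondrial HSP70, had 0.65 ± 0.19 with the transgene and Trap1, the mitochondrial HSP90, -0.19 ± 0.09, both without overlap and neither past the threshold. For diet Clpx, a matrix unfoldase, had -0.69 ± 0.35 and Trap1 0.15 ± 0.09. Among 12 genes of the TRiC chaperonin, which folds actin and tubulin, and its partner prefoldin, Cct5 had -0.34 ± 0.14 for diet and 0.32 ± 0.13 with the transgene, Cct4 had -0.23 ± 0.09 for diet and Cct3 0.24 ± 0.14 with the transgene. These values are log2 differences with SE, and none passed.

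Chaperones of the endoplasmic reticulum, which fold secreted proteins, were mostly above 0 where Hspa1a and Hspa1b were below it. With the transgene 12 of 15 were above 0 (median 0.23) and none passed, the smallest p being those of Sdf2l1 (1.13 ± 0.29) and Dnajb11 (0.48 ± 0.13). Against the normal diet Sdf2l1 (1.41 ± 0.31), Pdia4 (0.73 ± 0.16) and Pdia3 (0.68 ± 0.12) rose in transgenic mice (log2, SE; limma adjusted p of 0.0438, 0.0413 and 0.0169). For diet Pdia3 had 0.31 ± 0.12 and Calr 0.31 ± 0.12, and neither passed.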

How the data were processed

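The deposited table gave linear intensity values, MAS5 signal according to the submitters' processing notes (version not given in the sources used here), for 22690 probe sets on 11 arrays. How the authors ran MAS5 beyond that is not recorded. Sample titles gave the groups and the platform annotation the gene symbols. The 9 member genes on the array matched RefSeq's GRCm38.p6 table by Entrez identifier, with 0 symbols changed.

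Signals below 1 (1386 values) were raised to 1, then log2 was taken. Left out were 64 controls, 691 probe sets naming several genes, 1555 naming no gene and, of the 20380 naming 1, the lowest 40% by mean log2 signal. On the remaining 12228, limma (version 3.58.1, R 4.3.3; lmFit, then eBayes with trend) fitted all 11 arrays at once, two-sided, with Benjamini-Hochberg adjustment over all of them. The fit was also run on simulated data with independent noise, which holds no shift shared by many genes of an array and so cannot judge calls that turn on single arrays. MAS5 scales each array alone, and no detection calls were used.

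The members and lists were chosen with earlier results of these data known. Named genes are all members, list genes past the threshold, the 2 of smallest p per list for diet and for transgene, and the 5 of most like pattern. Deviations of same-numbered arrays correlated at -0.0521 to 0.264, and not every pair of a comparison exceeded 0.1, so the numbers were not taken as pairs. For the transgene on the high-fat diet all were above 0, from 0.0797 to 0.264, and whether those mice were paired is not known. Alternatives covered quantile scaling, adding 32 before log2, other filters on dim probe sets, 1 probe set per gene, other variance models, array weights, only the groups compared, the replicate block and leaving out arrays.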

Additional observations from a re-analysis of the deposited data

Results flagged for a closer look

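Hspa8 at 1420623_x_at is listed because wild-type high-fat array 4 stood apart from the rest of its group. Its signal was 6646, against 9371 to 9779 in the other 3 arrays, a gap of 0.890 of the group's log2 range, which is above Dixon's critical value for 4 samples. Chance flags about 1 in 20 groups, and 40 probe set and group pairs were looked at.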

How the results depend on the processing

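Apart from leaving out single arrays, 594 alternative values were computed for the 57 member differences: 578 kept their direction and their side of the threshold, 6 changed sign without being called in either fit, 9 lost the call and 1 gained it (Hspa1a against the normal diet with only the groups compared, -2.38, limma adjusted p = 0.0452). With single arrays left out, 595 of 627 values kept both, 22 changed sign without being called and 10 lost the call. Members called for diet and for the transgene stayed at 0 under every alternative run. Against the normal diet the 2 called members became 1 with 1 probe set per gene or array weights, and 0 without trend, with robust eBayes, with the replicate block or without transgenic arrays 3 and 4, and ranged from 0 to 2 when single arrays were left out. Over all probe sets, the 0 called for diet became 2 with the replicate block, and 0 to 5 on leaving out arrays. The 50 called for the transgene became 22 without a filter, 28 with 1 probe set per gene, 0 without trend, 89 with array weights, 6 with only the groups compared and 4 without transgenic arrays 3 and 4, and 0 to 87 on leaving out arrays. The 239 called against the normal diet became 116 without trend and 31 without transgenic arrays 3 and 4, and 58 to 280 on leaving out arrays. The causes were not tested. The replicate block changed no other call of a member. Hspa1a and the dim Hspa8 probe set lie near the background, which limits their folds.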

Other observations

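Immediate early genes, which many cells switch on within minutes of a stimulus, were on the array for 19 genes, and 16 were tested. With the transgene 12 of 16 were above 0 (median 0.36, against -0.00064 over all genes), where 50.1% of all genes were below 0. None passed in limma, and 2 were higher at an unadjusted p under 0.05, where 7.39% of all probe sets were. Btg2, an antiproliferative factor, had signals of 488, 816 and 2677 as means of normal-diet, wild-type high-fat and transgenic mice, and a transgene difference of 1.33 ± 0.45 (log2, SE; limma adjusted p = 0.214). Junb, a subunit of AP-1, had 0.88 ± 0.39. For diet Ier3 had -1.14 ± 0.55 and Gadd45b -0.98 ± 0.54.

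The genes whose deviations from the group mean over the 11 arrays were most like the mean of the 9 heat shock genes were Bzw1 (Pearson r = 0.941), Uox (0.937), Rps14 (0.934), Dna2 (0.932) and Ddx56 (0.917). They were the highest of 7762 genes compared, so these values describe the arrays and are not tests. Bzw1 had signals of 1433 to 1638 on the normal diet, 1528 to 2012 in wild-type high-fat mice and 1826 to 2136 in transgenic mice.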
